A study of Danio rerio with 3 samples.

Results

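The Hox cluster genes of the zebrafish were followed through 3 sorted cell populations. Members were chosen by name: every row whose gene ID begins with hoxa, hoxb, hoxc or hoxd followed by a number. The rule found 48 genes among the 14428 in the expression table. They cover 7 clusters (hoxaa with 7 members, hoxab with 5, hoxba with 11, hoxbb with 4, hoxca with 11, hoxcb with 3 and hoxda with 7) and all 13 paralog numbers. The rule used no measured value. By RefSeq positions, the annotated spans of 18 of the 48 overlap that of another Hox gene, in each case through hoxa3a, hoxb3a, hoxb1b, hoxc3a or hoxd3a. The others are hoxa4a, hoxa5a, hoxb4a, hoxb5a, hoxb6a, hoxb5b, hoxb6b, hoxc4a, hoxc5a, hoxc6a, hoxc8a, hoxc9a and hoxd4a. All 18 are described below. How reads in such spans were assigned is not given in the sources used here. All 48 matched a RefSeq symbol of assembly GRCz12tu, where they make up all but 1 of the 49 protein-coding Hox genes; the other, hoxc11b, was not analysed here.

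All cells came from wild-type embryos at 72 hours post fertilization (hpf), pooled from about 1000 animals carrying both an mpeg1:mCherry and an mpx:EGFP transgene, with no treatment. The mpeg1 promoter marks macrophages and the mpx (myeloperoxidase) promoter marks neutrophils. The embryos were homogenized and sorted by fluorescence into mCherry+ only, EGFP+ only and double-negative cells, the last being whatever other cells of the embryo passed the sort. With a single library per population there is no replicate error, so differences are described by size, untested and without p-values. The questions are which Hox transcripts are found in each population, and how their levels in the 2 phagocyte populations compare with those in the remaining cells.

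Hox genes encode homeodomain transcription factors that give cells their position along the head-to-tail axis. They lie in clusters, and genes of low paralog number are switched on further forward (hindbrain, pharyngeal arches) than genes of high number (trunk, tail, distal fin). Teleost fish have more clusters than mammals after an additional genome duplication, which leaves many genes as an "a" and a "b" copy. Hox proteins bind DNA together with Pbx and Meis cofactors. In mouse and human, some Hox genes, among them HOXA9, HOXA10 and HOXB4, are also active in blood stem and progenitor cells and are turned down as myeloid cells mature.

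Levels are given in FPKM, that is, sequenced fragments divided by transcript length and library size, so genes can be compared with each other. Comparison between libraries also depends on how they are scaled, as the shifts given below show. Log2 ratios are of (FPKM + 1), which understates differences at low levels. Genes count as tested where any library had them at 1 FPKM or above (12285 genes, among them 46 Hox genes), and a gene was called lower or higher past a 4-fold ratio on that scale. Read depth is unknown. A value of 0 is read only as listed at 0, because the DNA repair gene xrcc6 and the proteasome gene psmd7, which cells in general use, were also listed at 0 in every library. In bulk RNA, fewer cells expressing a gene and less RNA per cell cannot be told apart. Against the double-negative library, 12 of 12 measured macrophage genes were called higher in the mCherry+ library and 3 in the EGFP+ library, and of 8 measured neutrophil genes 8 were called higher in the EGFP+ and 7 in the mCherry+ library. Summed macrophage genes were at 8208 FPKM in mCherry+, 937 in EGFP+ and 18.8 in double-negative cells, and summed neutrophil genes at 954, 38428 and 30.7. Genes high in both reporter libraries carried much of the smaller reporter sums. Among them were ctssb.1, at 783 in EGFP+ cells, and csf3r and ncf1, at 365 and 313 in mCherry+ cells. The sort gene mpeg1 was at 1396 in mCherry+, 9.92 in EGFP+ and 2.84 in double-negative cells. In the same order, mpx was at 55.8, 12480 and 3.10. The libraries were also shifted against each other over 5361 well-detected genes, those at 5 FPKM or above throughout. For each library the median log2 level relative to the mean of the 3 libraries was taken. These medians differed by 0.37 (mCherry+) and 0.48 (EGFP+) from that of double-negative cells. The difference was −0.10 when the mCherry+ library was set against the EGFP+ library. Values are as deposited unless a scaling is named.

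Hox transcripts were at much lower levels in both reporter libraries than in the double-negative library. The 48 genes summed to 290.9 FPKM in double-negative, 78.0 in mCherry+ and 84.1 in EGFP+ cells. The reporter sums were thus 26.8% and 28.9% of the double-negative sum. As a share of all FPKM, Hox genes made up 0.0815% of the double-negative, 0.0136% of the mCherry+ and 0.0121% of the EGFP+ library. The median Hox gene was at 4.39 FPKM in the double-negative library, near the 5.69 of the median gene in the table. It was at 1.17 in the mCherry+ library, where the median gene had 4.48, and at 1.65 in the EGFP+ library, where the median gene had 4.62.

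The number of Hox genes reaching a level of 1 FPKM followed the same order. In the double-negative library 46 of 48 did (95.8%, against 80.0% of all genes). In the mCherry+ library 27 did (56.2%, against 73.0%) and in the EGFP+ library 28 (58.3%, against 73.6%). No Hox gene was listed at 0 in the double-negative library, where 9.36% of all genes were. In the mCherry+ library 8 were (16.7%, against 13%) and in the EGFP+ library 7 (14.6%, against 13.9%), shares near those of all genes. A level of 10 FPKM was reached by 10 Hox genes in the double-negative library and by none in either reporter library.

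By order of the levels, 43 of the 46 tested Hox genes were highest in the double-negative library (40.9% of all tested genes were). The other 3 were highest in the EGFP+ library (background 32.7%): hoxa2b, hoxa10b and hoxa11a. None was highest in the mCherry+ library (background 26.4%). The 2 untested members, hoxa13b and hoxb1a, were also highest in the EGFP+ library but stayed under 1 FPKM throughout, at up to 0.447 and 0.754. Just above that filter lay hoxa13a, hoxc1a and hoxd12a, with highest levels of 1.38, 1.53 and 1.95 FPKM, all in the double-negative library. The tested members hoxa1a, hoxa13a, hoxb10a, hoxb13a, hoxd10a, hoxd11a, hoxd12a and hoxd13a reached 1 FPKM only in the double-negative library. Having passed the filter that way, they could only be highest there and below 0 in both ratios over it. Over all 48 members, with no filter, 43 (89.6%) were highest in the double-negative library and 5 in the EGFP+ library. Across the 48 genes, the order of levels in the double-negative library was shared in part by the mCherry+ library (Spearman's rho 0.62, Pearson's r of log2 values 0.64) and the EGFP+ library (rho 0.57, r 0.58). Between the 2 reporter libraries rho was 0.31 and r 0.35. These are descriptions across genes, which are not independent replicates and share transcript lengths and annotation.

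**Figure D1:**
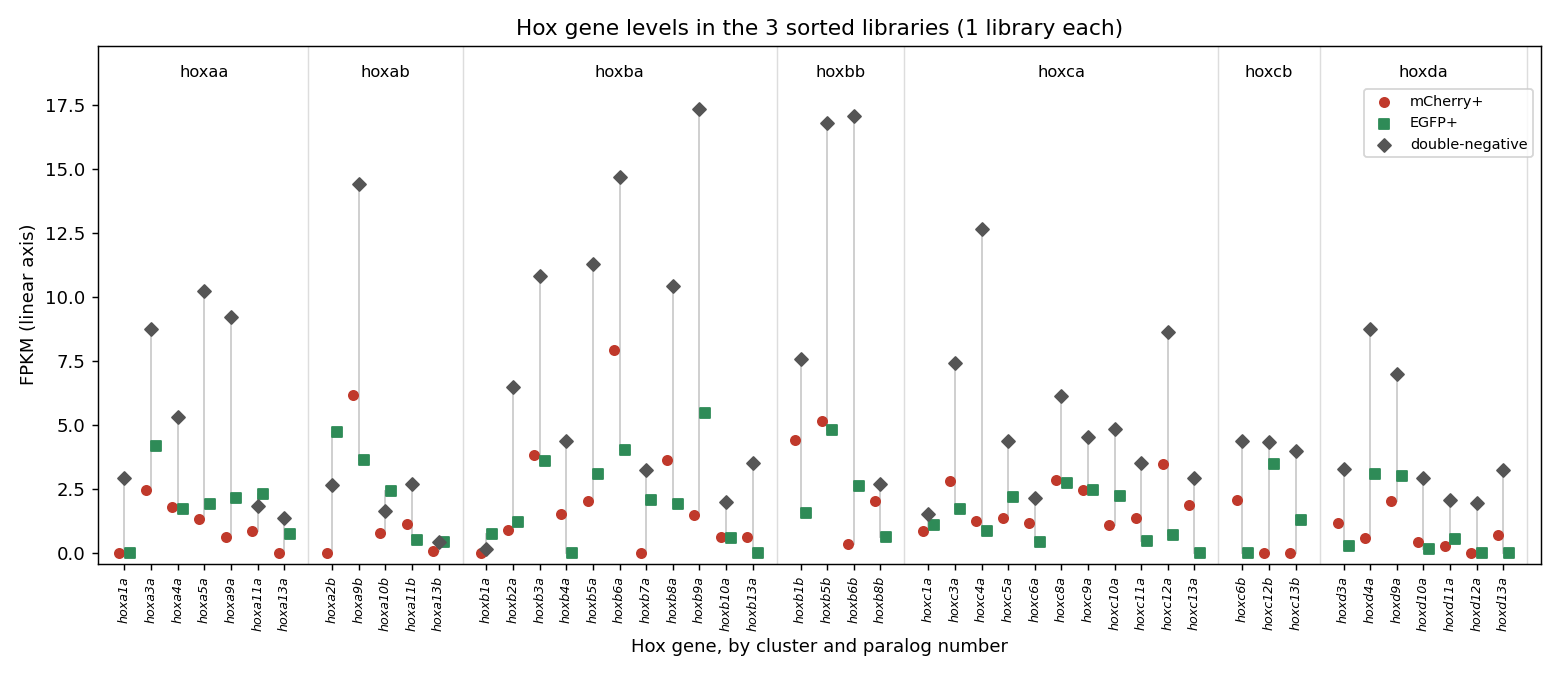
FPKM (linear axis) of each of the 48 Hox genes in the mCherry+ (circles), EGFP+ (squares) and double-negative (diamonds) library, ordered by cluster and paralog number; symbols are shifted sideways so that values at 0 can be seen. Double-negative values reach 17.3 FPKM (hoxb9a), while no reporter value exceeds 7.94 (hoxb6a in the mCherry+ library).

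Against the double-negative library, 10 of the 48 Hox genes were called lower in the mCherry+ library (20.8%, where 7.36% of all tested genes were) and none was called higher (background 8.18%). Here and in the next comparisons the Hox share is over all 48 members, although only the 46 tested ones could be called. The background is over tested genes only. The 46 tested genes had a median log2 ratio of −1.29, against −0.04 for all 12285 tested genes, and each of the 46 was below 0. With no filter, all 48 members were below 0, at a median of −1.27. Leaving out the members listed at 0, the median was −1.18 over 39 genes. After median-ratio scaling of the libraries, which lowers these ratios for all genes (log2 shift 0.37), it was −1.55. Of the genes with a value above 0 in both libraries, hoxb6b was furthest apart, at 17.1 FPKM in the double-negative and 0.369 in the mCherry+ library, a log2 ratio of −3.72. The 6 others with a value in both libraries that were called were hoxb9a (log2 ratio −2.89), hoxa9a (−2.65), hoxd4a (−2.63), hoxc4a (−2.59), hoxa5a (−2.26) and hoxb5a (−2.02). The remaining 3, hoxb7a, hoxc12b and hoxc13b, were listed at 0 in the mCherry+ library, so no fold is given for them. The log2 ratio closest to 0 among tested members was that of hoxb8b, at 2.71 against 2.04 FPKM, or 75.2% of its double-negative level. By paralog number, 6 of the 10 called genes were central (numbers 4 to 8, 16 members) and 4 posterior (9 to 13, 22 members).

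In the EGFP+ library 7 of 48 Hox genes were called lower than in the double-negative library (14.6%, where 5.38% of all tested genes were) and none higher (background 8.53%). With median-ratio scaling, which sets the median gene level between libraries, this count was 19. That scaling lowers the EGFP+ ratios of all genes (log2 shift 0.48). The share of all tested genes called under it is not given, so 5.38% is no background for the 19. The tested members had a median log2 ratio of −1.53, against −0.05 for all tested genes. It was −1.26 over the 39 with a value above 0 in both libraries, and −1.84 after median-ratio scaling. Of the 46 tested genes, 43 were below 0 and 3 above. With no filter, 43 of the 48 members were below 0 and 5 above, at a median of −1.43. Called genes with a value in both libraries were hoxc4a (12.7 against 0.874 FPKM, log2 ratio −2.87), hoxc12a (8.62 against 0.703, −2.50) and hoxb6b (17.1 against 2.63, −2.32). The other 4, hoxb4a, hoxb13a, hoxc6b and hoxd13a, were listed at 0 in the EGFP+ library. Of these, hoxb13a and hoxd13a reached 1 FPKM only in the double-negative library. Here 4 of the called genes were central and 3 posterior. Both counts share the double-negative library, so they are not independent of each other. A gene can be called lower against a value of 0 only from a level of 3 FPKM upward, which 32 of the 48 had in the double-negative library.

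Between the reporter libraries Hox genes differed in both directions. Of the 48 genes, 2 were called lower in mCherry+ than in EGFP+ cells (4.17%, where 3.34% of all tested genes were) and none higher (background 3.9%), so the share of calls was near that of any gene. The median log2 ratio was 0.01 over the 46 tested genes, against −0.08 for all tested genes. It was −0.01 after scaling to the housekeeping genes and 0.15 when each library was given an equal FPKM total. Both called genes were listed at 0 in the mCherry+ library: hoxa2b, at 4.74 FPKM in the EGFP+ library, and hoxc12b, at 3.49. Among genes with values in both, hoxb9a, hoxb6b and hoxd4a leaned towards EGFP+ (log2 ratios of −1.38, −1.41 and −1.36), and hoxc12a and hoxb1b towards mCherry+ (1.40 and 1.08). None of these was called on the (FPKM + 1) scale, which shrinks ratios at such levels: among the 34 tested genes above 0 in both, the mCherry+ FPKM ranged from 14% (hoxb6b) to 496% (hoxc12a) of the EGFP+ FPKM. With a pseudocount of 0.1 in place of 1, 7 Hox genes were called lower and 6 higher in mCherry+ cells. The share of all tested genes called at 0.1 is not given, so 3.34% and 3.9% are no background for these counts. Another 5 genes were listed at 0 in the EGFP+ library and had mCherry+ values between 0.637 and 2.08 FPKM: hoxb4a, hoxb13a, hoxc6b, hoxc13a and hoxd13a.

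**Figure D2:**
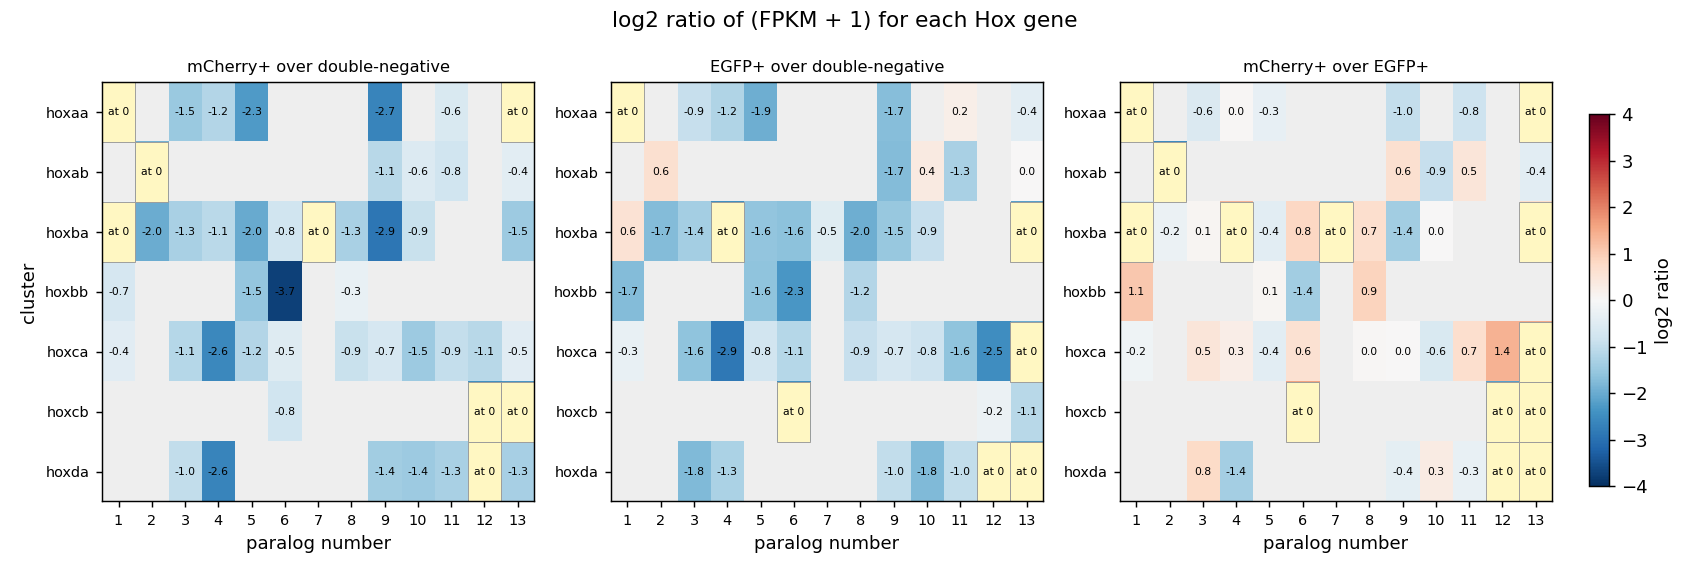
Log2 ratio of (FPKM + 1) for each Hox gene in 3 comparisons, with the 7 clusters as rows and paralog numbers 1 to 13 as columns; blue is lower and red higher in the first-named library, grey places hold no member, and yellow places marked "at 0" hold a gene listed at 0 in a library compared, for which no ratio is given. Every ratio in the first panel is negative (down to −3.72 for hoxb6b), while the third has both signs.

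The anterior genes (paralog numbers 1 to 3, 10 members) specify hindbrain segments and pharyngeal arches. They summed to 51.7 FPKM in the double-negative, 16.5 in the mCherry+ and 19.2 in the EGFP+ library. None of the 10 was called in either comparison with double-negative cells. Just short of the threshold in mCherry+ cells was hoxb2a, 3.95-fold lower on the (FPKM + 1) scale (6.48 against 0.896 FPKM). The level of hoxa1a (2.94 FPKM against 0) cannot reach the threshold. Median log2 ratios of all anterior, central and posterior members were close, at −1.21, −1.24 and −1.27 in mCherry+ cells. In EGFP+ cells they were −1.49, −1.60 and −1.21. The hindbrain gene hoxb1b had 7.58 FPKM in the double-negative, 4.43 in the mCherry+ and 1.57 in the EGFP+ library. Its copy hoxb1a, which gives the fourth hindbrain segment its identity in zebrafish, was at 0.170 in the double-negative library, listed at 0 in mCherry+ and at 0.754 in EGFP+. Thus the b copy was the one measured above 1 FPKM, and its mCherry+ level was the fourth highest of any Hox gene there. The span of hoxb1b overlaps those of hoxb5b and hoxb6b, however, and how reads there were assigned is not given. The other number 1 genes were low: hoxa1a was at 2.94 in double-negative cells and listed at 0 in both reporter libraries, and hoxc1a was at 1.53, 0.858 and 1.08 in the double-negative, mCherry+ and EGFP+ libraries.

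The gene hoxa2b, which specifies the second pharyngeal arch in zebrafish, was at 2.68 FPKM in the double-negative library, listed at 0 in the mCherry+ library and at 4.74 in the EGFP+ library. It was the third highest Hox gene of the EGFP+ library. The other number 2 gene, hoxb2a, was at 6.48 in double-negative, 0.896 in mCherry+ and 1.24 in EGFP+ cells. Number 3 genes, which act in the posterior hindbrain and the third arch, were similar in both reporter libraries. They summed to 30.3 FPKM in double-negative, 10.3 in mCherry+ and 9.81 in EGFP+ cells, so 34.1% and 32.4% of the double-negative sum was found there. In the same order, hoxa3a was at 8.77, 2.48 and 4.20, and hoxb3a at 10.8, 3.84 and 3.60. The other number 3 genes were hoxc3a, at 7.42, 2.84 and 1.75, and hoxd3a, at 3.27, 1.18 and 0.267. All 4 number 3 genes were highest in double-negative cells.

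The central genes (numbers 4 to 8, 16 members) act in the posterior hindbrain, spinal cord and trunk mesoderm. They held the largest summed level in the double-negative library, 134.7 FPKM, with 35.2 in mCherry+ and 32.2 in EGFP+ cells. They made up 46.3% of the Hox sum in the double-negative, 45.2% in the mCherry+ and 38.3% in the EGFP+ library. The 4 number 4 genes had 16.7% of their double-negative sum in mCherry+ and 18.2% in EGFP+ cells. Among them hoxc4a was at 12.7 FPKM in double-negative, 1.27 in mCherry+ and 0.874 in EGFP+ cells, low in both reporter libraries. The retinoic acid-responsive gene hoxd4a was at 8.76 in double-negative, 0.583 in mCherry+ and 3.07 in EGFP+ cells. The gene hoxb4a, whose mouse and human counterpart promotes blood stem cell growth, was at 4.39 in double-negative and 1.55 in mCherry+ cells and listed at 0 in EGFP+ cells. Levels of hoxa4a were 5.32, 1.80 and 1.73 in double-negative, mCherry+ and EGFP+ cells.

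The gene hoxb5b, which in zebrafish responds to retinoic acid, had 16.8 FPKM in double-negative, 5.15 in mCherry+ and 4.80 in EGFP+ cells, ranking among the first 3 in all libraries. Its copy hoxb5a was at 11.3, 2.04 and 3.10, and hoxa5a at 10.2, 1.36 and 1.94, in the same order. The level of hoxc5a was 4.39 in double-negative, 1.38 in mCherry+ and 2.19 in EGFP+ cells. Thus all 4 number 5 genes reached 1 FPKM in each library. The gene hoxb6a was the highest Hox gene of the mCherry+ library, at 7.94 FPKM against 14.7 in double-negative and 4.03 in EGFP+ cells. Its copy hoxb6b had the second highest double-negative level, 17.1, but only 0.369 in mCherry+ and 2.63 in EGFP+ cells. The C-cluster gene hoxc6a was at 2.14, 1.17 and 0.431 in double-negative, mCherry+ and EGFP+ cells. For its copy hoxc6b the values were 4.39 and 2.08 in double-negative and mCherry+ cells, and it was listed at 0 in EGFP+ cells.

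The only number 7 gene, hoxb7a, was at 3.27 FPKM in double-negative and 2.07 in EGFP+ cells and listed at 0 in mCherry+ cells. Of the number 8 genes, hoxb8a, whose mouse counterpart holds myeloid progenitors undifferentiated when overexpressed, had 10.4 in double-negative, 3.64 in mCherry+ and 1.93 in EGFP+ cells. Its copy hoxb8b was at 2.71, 2.04 and 0.648 in the same order, the member with the highest retained share (75.2%) in the mCherry+ library. The trunk gene hoxc8a was nearly level between the reporter libraries, at 2.84 in mCherry+ and 2.75 in EGFP+ cells, against 6.14 in double-negative cells.

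**Figure D3:**
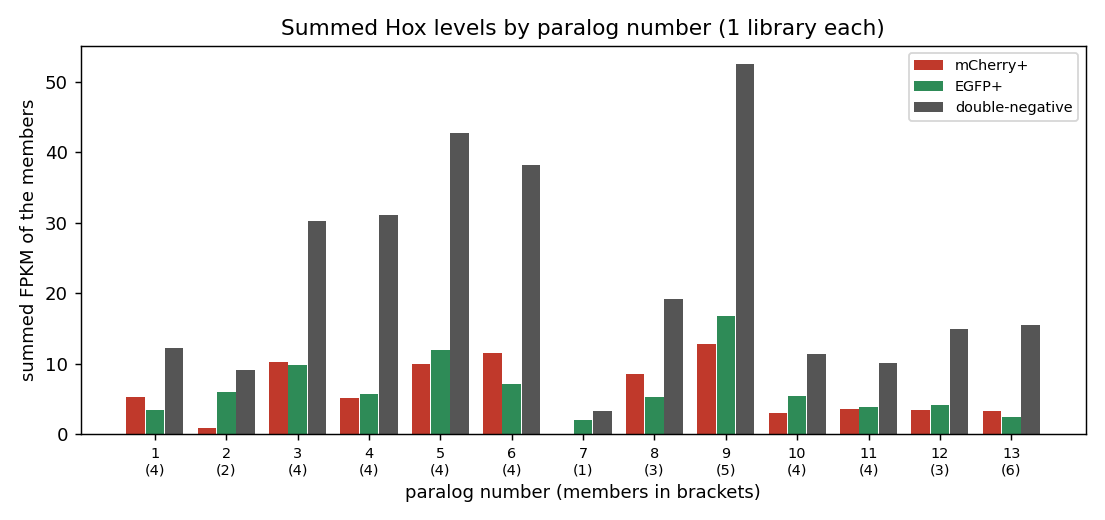
Summed FPKM (bars from 0) of the Hox genes of each paralog number in the mCherry+, EGFP+ and double-negative libraries, with the number of members in brackets. The double-negative bar is the tallest at each number, and is highest at number 9 (52.5 FPKM, 5 members) and number 5 (42.7 FPKM, 4 members).

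The posterior genes (numbers 9 to 13, 22 members) pattern the trunk, tail and fins. They summed to 104.5 FPKM in double-negative, 26.2 in mCherry+ and 32.7 in EGFP+ cells. Number 9 made up much of this, with 52.5, 12.8 and 16.7 in the same order. The highest double-negative level of all Hox genes was that of hoxb9a, 17.3 FPKM. It was also the highest Hox gene of the EGFP+ library, at 5.46, but had 1.48 in the mCherry+ library. For hoxa9b, a counterpart of the blood progenitor gene HOXA9 of mouse and human, the levels were 14.4 in double-negative, 6.18 in mCherry+ and 3.64 in EGFP+ cells. Its copy hoxa9a was at 9.23, 0.624 and 2.14. The mCherry+ library thus held hoxa9b as its second highest Hox gene and hoxa9a under 1 FPKM. Of the other number 9 genes, hoxc9a was at 4.55 in double-negative, 2.47 in mCherry+ and 2.46 in EGFP+ cells. The fin bud gene hoxd9a was at 6.99, 2.05 and 3.03.

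Numbers 10 and 11 were low throughout, under 5 FPKM in every library. The gene hoxa10b, whose mammalian counterpart acts in blood progenitors, was at 1.66 FPKM in double-negative, 0.804 in mCherry+ and 2.42 in EGFP+ cells. With hoxa11a, at 1.83, 0.871 and 2.32, it was above its double-negative level in the EGFP+ library, as hoxa2b was. Both ratios there were small, with log2 values of 0.36 and 0.23. The copy hoxa11b went the other way, at 2.72, 1.16 and 0.526. The hindlimb-level gene hoxc10a (a role known from mouse) was at 4.83 in double-negative, 1.12 in mCherry+ and 2.25 in EGFP+ cells, and hoxc11a at 3.54, 1.36 and 0.479. The remaining 3 genes of these numbers, hoxb10a, hoxd10a and hoxd11a, lay between 2.01 and 2.96 FPKM in double-negative cells and under 1 in both reporter libraries.

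Numbers 12 and 13, genes of the tail and distal fin, were often listed at 0: their 9 members held 4 of the 8 zeros of the mCherry+ library and 4 of the 7 of the EGFP+ library. The highest of them, hoxc12a, was at 8.62 FPKM in double-negative, 3.49 in mCherry+ and 0.703 in EGFP+ cells. Its copy hoxc12b was at 4.33 in double-negative and 3.49 in EGFP+ cells and listed at 0 in mCherry+ cells. The reporter libraries thus held opposite copies of the number 12 gene of cluster C above 1 FPKM.

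Number 13 of cluster C had the same arrangement. Its a copy, hoxc13a, was at 2.94 FPKM in double-negative and 1.87 in mCherry+ cells and listed at 0 in EGFP+ cells. The b copy, hoxc13b, was at 3.98 in double-negative and 1.28 in EGFP+ cells and listed at 0 in mCherry+ cells. The tail gene hoxb13a was at 3.52 in double-negative and 0.637 in mCherry+ cells and listed at 0 in EGFP+ cells. Likewise hoxd13a, a gene of the distal fin, was at 3.24, 0.694 and listed at 0. The last of them, hoxd12a, was at 1.95 in double-negative cells and listed at 0 in both reporter libraries. Of the distal fin genes of cluster A, hoxa13a was at 1.38 in double-negative and 0.770 in EGFP+ cells and listed at 0 in mCherry+ cells, and hoxa13b was at 0.442 in double-negative, 0.447 in EGFP+ and 0.0838 in mCherry+ cells. Only hoxc12a, hoxc12b, hoxc13a and hoxc13b of the 9 reached 1 FPKM in a reporter library.

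The a and b copies left by the fish genome duplication could be compared for 10 genes. In the double-negative library most copies were near each other, with the higher between 1.16 and 3.84 times the lower in 9 of 10 and 44.6 times for hoxb1b over hoxb1a. The higher copy was the same one as in the double-negative library in 7 of the 10 in the mCherry+ library and 6 of 10 in the EGFP+ library. With only an a and a b copy per gene, some pairs would agree whatever their order. Some pairs were also ordered by values under 1 FPKM. Examples are hoxa13b (0.0838) over hoxa13a (listed at 0) in mCherry+ cells and hoxc6a (0.431) over hoxc6b (listed at 0) in EGFP+ cells. The widest quotient in the mCherry+ library among copies above 0 was that of hoxb6a over hoxb6b, 21.5, where the EGFP+ library had 1.53 and the double-negative library had hoxb6b the higher by 1.16. Next was hoxa9b over hoxa9a, 9.89 in mCherry+, 1.70 in EGFP+ and 1.56 in double-negative cells. In the EGFP+ library the quotients above 0 ran from 1.53 to 4.96, the latter for hoxc12b over hoxc12a. Without replicates, the error of these quotients at levels of a few FPKM is not known. Among these copies, the spans of hoxb1b, hoxb5a, hoxb5b, hoxb6a, hoxb6b and hoxc6a overlap that of another Hox gene.

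By cluster, hoxba held the largest sum in each library, 84.4 FPKM in double-negative, 22.6 in mCherry+ and 22.8 in EGFP+ cells. The hoxaa and hoxda clusters had 18.0% and 17.9% of their double-negative sum in mCherry+ cells, and 33.0% and 24.2% in EGFP+ cells. The hoxca cluster leaned the other way, with 35.2% in mCherry+ and 25.5% in EGFP+ cells, and 10 of its 11 members reached 1 FPKM in the mCherry+ library against 6 in the EGFP+ library. All 7 clusters were below their double-negative sum in both reporter libraries, with shares from 16.4% (hoxcb in mCherry+) to 53.8% (hoxab in EGFP+).

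Genes next to the clusters were nearer to the level of other genes than the Hox genes were. The 3 nearest protein-coding RefSeq genes on each side of each cluster were taken, a choice made after values had been seen. They gave 42 places, of which 32 had values in the table and 30 were tested. Against double-negative cells, 4 of the 30 were called higher and 1 lower in mCherry+ cells (8.18% and 7.36% of all tested genes were), with a median log2 ratio of −0.01. In EGFP+ cells 4 were called higher and 0 lower (8.53% and 5.38% of all tested genes), with a median of 0.26. The medians of all tested genes were −0.04 and −0.05.

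The called genes lay near 3 of the 7 clusters. Directly beside the low-number end of hoxaa, snx10a, which encodes a sorting nexin of the endosome, was at 60.4 FPKM in mCherry+, 9.82 in EGFP+ and 1.47 in double-negative cells. Its neighbour on the cluster side, hoxa1a, was listed at 0 in both reporter libraries. The low-number end of hoxab has skap2, an adaptor protein of leukocyte adhesion signalling, at 30.9 in mCherry+, 80.4 in EGFP+ and 0.957 in double-negative cells. The nearest Hox gene there is hoxa2b, which the EGFP+ library also had above double-negative cells but the mCherry+ library listed at 0. One gene further out lies snx10b, at 84.9, 11.3 and 0.941 in the same order. At the low-number end of hoxda, nfe2l2a, the oxidative stress regulator and the second gene out, was at 114 in mCherry+, 120.4 in EGFP+ and 26.5 in double-negative cells. On the other side of hoxda, evx2, a homeobox gene of the even-skipped family that lies beside the number 13 gene, was at 1.08, 1.51 and 7.40, and so was low in the reporter libraries as the Hox genes were. Thus the 4 genes called higher in mCherry+ cells, snx10a, skap2, snx10b and nfe2l2a, were also the 4 called higher in EGFP+ cells, both against the same double-negative library.

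**Figure D4:**
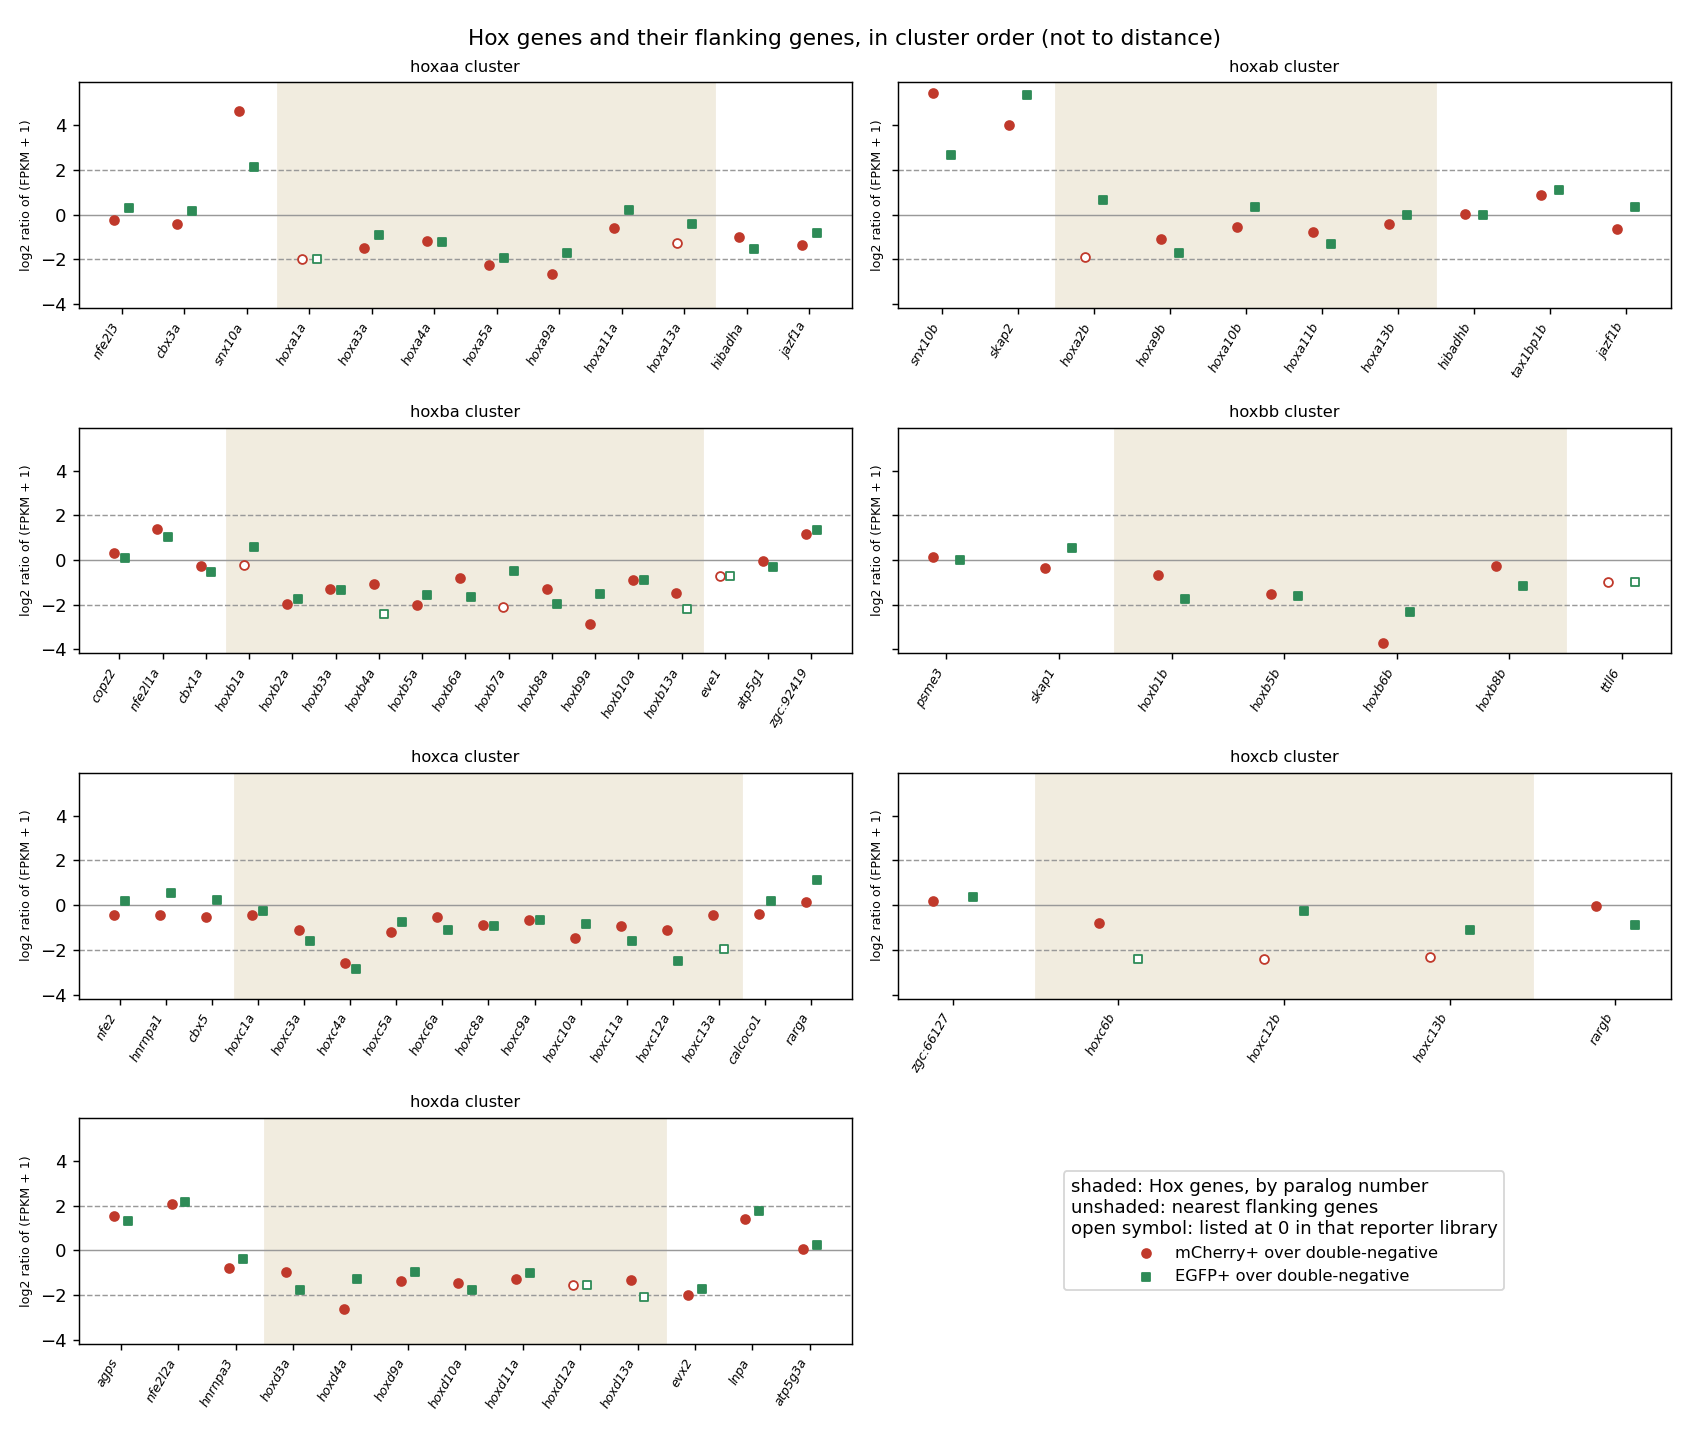
Log2 ratio of (FPKM + 1) over double-negative cells, in mCherry+ (circles) and EGFP+ (squares) cells, for the Hox genes of each cluster (shaded) and the nearest protein-coding genes with values on each side (unshaded), in cluster order and not to distance; open symbols mark genes listed at 0 in that reporter library, and dashed lines mark 4-fold. The shaded genes lie mostly below 0, while snx10a, skap2, snx10b and nfe2l2a lie above the upper dashed line in both.

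Hox cofactors were mostly at lower levels in the reporter libraries too. Of 12 measured genes of the Pbx and Meis families, 2 were called lower in mCherry+ cells (7.36% of all tested genes were) and 3 in EGFP+ cells (5.38%). None was called higher (8.18% and 8.53% of all tested genes). The median log2 ratios of the cofactors were −1.06 and −1.71. The cofactor meis2a was at 163 FPKM in double-negative, 25.4 in mCherry+ and 22.1 in EGFP+ cells, and was called in both. Also called were pbx3b in mCherry+ cells, at 11.2 against 52.2, and meis2b and pknox2 in EGFP+ cells, at 9.97 against 47.4 and 1.03 against 11.9. One member stood above its double-negative level in both reporter libraries: pbx2, at 32.5 in double-negative, 42.6 in mCherry+ and 61.6 in EGFP+ cells.

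Among regulators that act upstream of Hox genes in the embryo, calls went in both directions. In so small a list they cannot be set apart from the calls of all tested genes. Of 25 tested (29 measured), 3 were called higher and 3 lower in mCherry+ cells, and 2 higher and 2 lower in EGFP+ cells, with medians of −0.13 and −0.68. The shares of all tested genes were 8.18% higher and 7.36% lower in mCherry+ cells, and 8.53% and 5.38% in EGFP+ cells. Higher in mCherry+ cells were mafba, a hindbrain segment gene that also acts in macrophages, egr2b, another hindbrain segment gene, and rxrga, a retinoid receptor. Their levels were 101 against 7.81, 25.9 against 2.18 and 73.2 against 3.45 FPKM. In EGFP+ cells rxrga (29.5) and the retinoic acid receptor raraa (30.7 against 5.43) were called higher. The Cdx genes, which switch on central and posterior Hox genes in the trunk, were low: neither reporter library had a value above 0 for cdx1a or cdx1b, which double-negative cells had at 0.787 and 3.58. The third, cdx4, was listed at 0 in mCherry+ cells and at 0.334 in EGFP+ and 1.12 in double-negative cells. Among retinoic acid enzymes, the degrading enzyme cyp26a1 was called lower in mCherry+ cells (0.545 against 7.65) and cyp26b1 in EGFP+ cells (1.03 against 9.15). The synthesizing enzyme aldh1a2 was at 18.7 in mCherry+, 4.76 in EGFP+ and 17.5 in double-negative cells. The remaining called gene was hnf1ba, another regulator of hindbrain Hox genes, at 0.464 in mCherry+ against 7.92 in double-negative cells.

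Calls among chromatin regulators of Hox clusters cannot be set apart from those of all tested genes, since the lists are small. Of all tested genes, 8.18% were called higher and 7.36% lower in mCherry+ cells, and 8.53% and 5.38% in EGFP+ cells. Trithorax group proteins keep Hox genes active and Polycomb group proteins keep them silent. None of 11 measured Trithorax genes was called in either comparison with double-negative cells, and the medians were −0.28 for mCherry+ and 0.46 for EGFP+ cells. Of 28 Polycomb genes, 1 was called higher and 1 lower in mCherry+ cells, and 1 higher and none lower in EGFP+ cells, with medians of −0.19 and 0.20. The gene called higher in both was pcgf5b, a subunit of a Polycomb repressive complex, at 9.15 in mCherry+, 21.1 in EGFP+ and 0.695 in double-negative cells. The one called lower was phc2b, at 1.35 in mCherry+ against 8.81 in double-negative cells. The core methyltransferase gene ezh2 was at 13.4 in mCherry+, 17.1 in EGFP+ and 8.71 in double-negative cells, under 4-fold apart. The medians depend on scaling, and with median-ratio scaling the Polycomb median in EGFP+ cells changed sign. The Trithorax medians were then −0.57 and 0.04 and the Polycomb medians −0.53 and −0.23, in mCherry+ and EGFP+ cells.

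**Figure D5:**
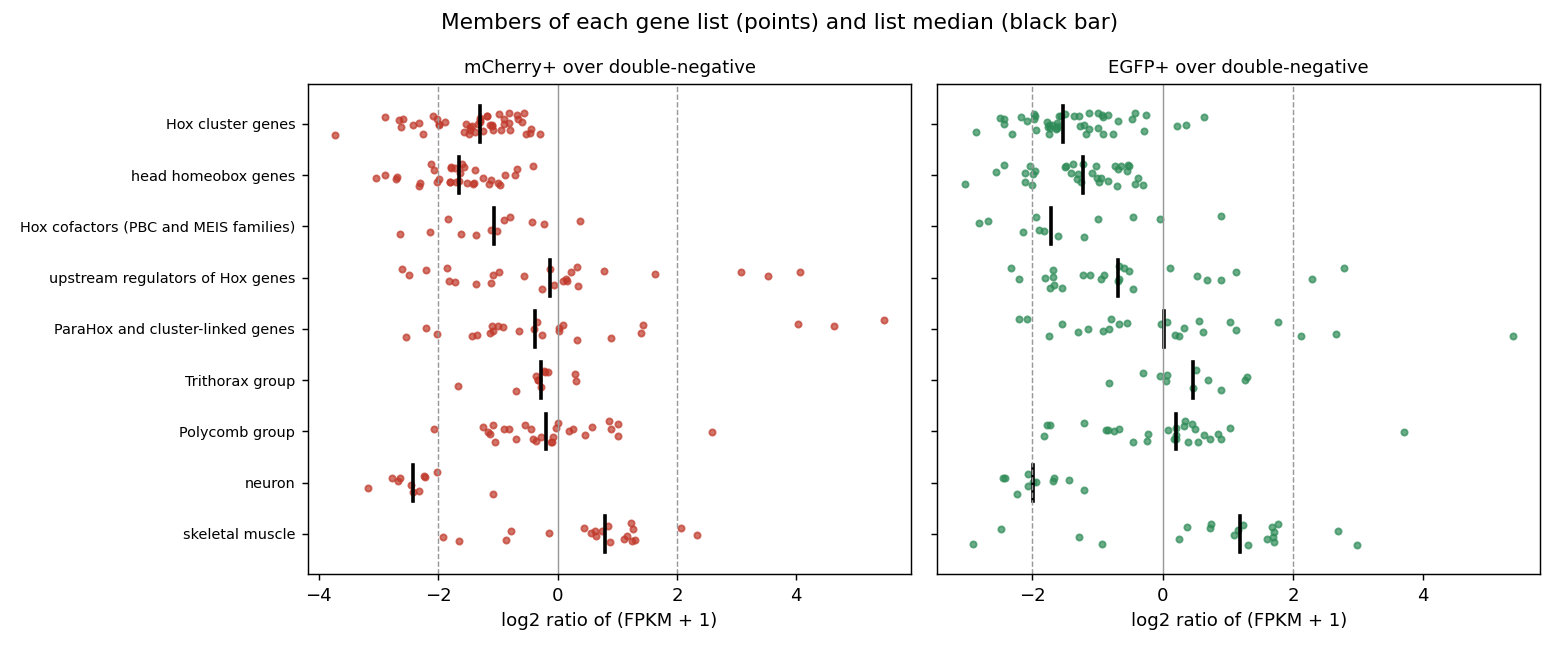
Log2 ratio of (FPKM + 1) over double-negative cells for each tested gene (points) of 9 lists, in mCherry+ (left) and EGFP+ (right) cells, with the list median as a black bar and 4-fold as dashed lines. Hox genes (medians −1.29 and −1.53) lie below 0 with the head homeobox, cofactor and neuron lists, Trithorax and Polycomb medians lie within 0.5 of 0, and the skeletal muscle medians lie above 0.

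Homeobox genes of the head, which are not in Hox clusters and mark forebrain, midbrain and eye, were low as well. Of 33 tested, 9 were called lower in mCherry+ cells (7.36% of all tested genes were) and 6 in EGFP+ cells (5.38%). None was called higher (8.18% and 8.53% of all tested genes). The medians were −1.66 and −1.22. Their summed level was 402 FPKM in double-negative, 86.2 in mCherry+ and 146 in EGFP+ cells, or 21.5% and 36.5%. The diencephalon gene lhx9 was at 22.3 in double-negative, 1.82 in mCherry+ and 2.96 in EGFP+ cells, and emx2, a gene of the dorsal forebrain, at 10.7, 2.62 and 0.430. The lower level in the reporter libraries was therefore also measured for homeobox genes outside the clusters.

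Markers of several other cell types in the embryo were also lower in the reporter libraries, and their part in the Hox values was not tested. Summed neuron markers (12 measured) were at 16.4% of their double-negative level in mCherry+ and 24.5% in EGFP+ cells. Neural crest and arch mesenchyme markers (13) were at 31.1% and 27.3%, and fin bud markers (8) at 20.0% and 30.7%. For notochord and cartilage (8) the values were 20.3% and 26.5%, and for epidermis (9) 25.1% and 37.8%. Abundant genes carried some of these sums. In double-negative cells, and1 and and2 were at 186 and 596 FPKM in the fin bud list, and col2a1a at 479 in the notochord and cartilage list. Of the tested members, the fin bud gene tbx5a and the epidermis gene krt8 were above their double-negative level in mCherry+ cells. Liver and gut (9) and erythroid (8) markers were lower still, at 4.12% and 3.85% in mCherry+ and 8.24% and 5.52% in EGFP+ cells. The Hox sums were at 26.8% and 28.9%. Apart from macrophage and neutrophil genes, the sums of all cell type lists, here and below, covered a wide range. They ran from 3.85% to 202% in mCherry+ and from 5.52% to 286% in EGFP+ cells.

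Not all lists were lower. Skeletal muscle genes (20 measured) summed to 202% of their double-negative level in mCherry+ and 286% in EGFP+ cells, a sum carried by abundant genes such as pvalb1 and pvalb2. Of the 20, 15 were above their double-negative level in mCherry+ and 16 in EGFP+ cells, with 2 called higher in each (8.18% and 8.53% of all tested genes were). The muscle regulators myod1, myog and myf5 and the actin gene acta1a were below their double-negative level in both, and myog and acta1a were called lower in EGFP+ cells. Pronephros genes (11) were at 113% and 62.9%, and endothelial genes (8) at 92.4% and 239%, the latter with fli1a, a gene also used by leukocytes, at 65 of the 82.9 FPKM. The median log2 ratios of these 2 lists were nonetheless below 0, at −0.23 and −0.65 for pronephros and −0.46 and −0.50 for endothelium. Spinal cord and hindbrain genes (20) summed to 120% in mCherry+ and 26.3% in EGFP+ cells. In mCherry+ cells mafba and egr2b made up most of that sum, and the list's median log2 ratios were −1.45 and −1.47. Among the markers of this list, lbx1a, mnx2a, mnx2b and phox2bb were listed at 0 in mCherry+ cells, and lbx1a and tlx3b in EGFP+ cells. Of these, mnx2b was untested, at no more than 0.459 FPKM in any library. The neuron gene gap43 was listed at 0 in all 3 libraries.

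Genes of blood stem and progenitor cells were mixed. The 9 measured genes summed to 77.4 FPKM in double-negative, 98.2 in mCherry+ and 159 in EGFP+ cells. Their median log2 ratios over double-negative cells were −0.68 for mCherry+ and 0.77 for EGFP+ cells, the second reaching 0.00 when each library was given an equal FPKM total. Of 8 tested, 2 were called higher in each reporter library (8.18% of all tested genes were in mCherry+ and 8.53% in EGFP+ cells). The 2 called were cbfb, the partner of runx1, at 58.2 in mCherry+, 70.5 in EGFP+ and 6.13 in double-negative cells, and the lymphoid and myeloid regulator ikzf1, at 8.55, 45.3 and 0.627. The blood stem cell regulator runx1 itself was at 7.39, 6.99 and 1.30, which did not reach 4-fold on the (FPKM + 1) scale, though the FPKM values themselves are further apart. The Hox cofactor meis1, which is also on this list, was at 16.5, 13.5 and 52.8, and was not called. Beside these, the fish counterparts of the Hox genes known from mammalian blood progenitors were highest in double-negative cells for hoxa9a, hoxa9b, hoxb4a and hoxb8a, and in EGFP+ cells only for hoxa10b, at 2.42 FPKM.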

How the data were processed

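RNA of 3 sorted cell populations, from more than 50000 cells each per the labels, was sequenced with 1 library per population. Per the labels' protocols, RNA was extracted with a carrier, depleted of ribosomal RNA and amplified from 50 ng. The authors deposited FPKM values per gene (fragments scaled to transcript length and library size). The submitters' processing notes name cutadapt, TopHat2 2.0.11, Cufflinks 2.2.1 and the danRer7 build; their settings, the strand and the gene models used are not given in these sources. Read depth is unknown, since the low values did not fall on whole-read steps.

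Of 14428 genes, the 12285 that reached 1 FPKM in any library were compared on log2(FPKM + 1), without a test, against a 4-fold size threshold, in Python 3.11.15 with pandas 2.3.3 and numpy 2.4.6. The code was tested on simulated data. Low levels and the pseudocount compress ratios, and amplification from little RNA adds an error that 1 library cannot show. Named were every Hox gene called in any comparison, every one at 1 FPKM or more in a reporter library and the 5 highest per library; other members are given by range or count. Of other lists, members at 5 FPKM or more were named from the extremes, plus called genes, Cdx genes and a few with a known role, chosen after their values were seen. Of 395 list entries in 21 lists, 342 were found, 12 under another symbol. Alternatives were other pseudocounts, filters, scalings and thresholds. The Hox genes and all lists were chosen with earlier results of these data known. Gene names and neighbours came from RefSeq GRCz12tu; no coordinate or sequence is given.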

Additional observations from a re-analysis of the deposited data

How the results depend on the processing

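Alternatives changed how many Hox genes passed the threshold more than their direction. The shares of all tested genes called under these alternatives are not given. The counts in this section therefore have no background and cannot be read as particular to Hox genes. With a pseudocount of 0.1, 20 were called lower in mCherry+ and 21 in EGFP+ cells than in double-negative cells, and between reporter libraries 7 lower and 6 higher in mCherry+ cells. With a pseudocount of 5 the counts lower were 1, 0 and 0 for mCherry+ over double-negative, EGFP+ over double-negative and mCherry+ over EGFP+, and the first 2 medians were −0.60 and −0.65. With a minimum of 10 FPKM the counts lower were 5, 2 and 0, since fewer genes were compared. A 2-fold threshold gave 31, 31 and 7 lower, and 5 higher in mCherry+ than EGFP+ cells, and an 8-fold threshold 1, 0 and 0 lower. Median-ratio, housekeeping and FPKM-sum scaling raised the EGFP+ count lower than double-negative to 19, 23 and 25, by their own shift of the ratios, and FPKM-sum scaling left 1 lower in mCherry+ than EGFP+ cells. The median of mCherry+ over EGFP+ reversed to −0.0102 under housekeeping scaling. Both medians over double-negative cells stayed below 0 under all alternatives run. At a level of 5 FPKM in place of 1, 3 Hox genes counted in mCherry+, 1 in EGFP+ and 20 in double-negative cells. Leaving out members listed at 0 was chosen after seeing the data. Among single Hox genes, 715 of 858 recomputed log2 ratios moved by less than the SD of housekeeping genes in that comparison (0.56 to 0.73), and so did 379 of 441 recomputed list medians. Part of this was fixed in advance, so these counts do not measure stability. The filter settings cannot change the ratio of a single gene. All scalings shifted mCherry+ over EGFP+ by less than its SD. No paired analysis was possible because each population had 1 library, and no library could be left out. With unknown depth and no replicate, differences between values of a few FPKM have no error, and the cause of the changes between settings was not tested otherwise.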
